A study of Homo sapiens with 6 samples.

Results

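The 6 genes described here lie on the long arm of human chromosome 16, around the divergent pair formed by the forkhead gene FOXF1 and the long non-coding RNA FENDRR. They are FENDRR, FOXF1, MTHFSD, FOXC2, FOXL1 and IRF8, and all 6 were found among the 60483 genes of the count table. They were chosen by the counts of the present comparison: FENDRR and FOXF1 had no count in any WT library and 433 to 1052 counts in the KO libraries, and the other 4 are their neighbours. Counts and fold changes of the 6 genes are therefore a description and carry no p-value.

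RNA-seq compared A2780, an established human ovarian carcinoma cell line with intact CDK12 (WT), with an A2780 CDK12 KO line, and asked how losing this kinase changed the transcriptome. CDK12 phosphorylates the tail of RNA polymerase II and is needed for the full transcription of many long genes. The KO cells came from CRISPR/Cas9 transfection directed at exon 1 of CDK12. A heterozygous clone was transfected again until a homozygous one was obtained, and they are 1 clone. The study reports a higher DNA content and a higher chromosome number in this clone than in A2780. Loss of CDK12 and the history of that clone cannot be told apart here. Both groups were grown untreated in the same RPMI medium with serum and glutamine, and each has 3 libraries. No source says that the 3 libraries came from separate cultures, so the p-values given below for other genes measure only the spread between libraries, which may be technical.

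FOXF1 is a forkhead transcription factor of the mesoderm. It is switched on by Hedgehog signals from the neighbouring epithelium, and lung capillaries, gut mesenchyme and lateral plate mesoderm depend on it. FENDRR is read from the opposite strand, away from FOXF1, and has been described as an RNA that binds the chromatin-modifying complexes PRC2 and TrxG/MLL in lateral mesoderm. FOXC2 and FOXL1 are forkhead factors of lymphatic and vascular mesoderm and of the mesenchyme under the gut epithelium. They share the gene cluster with FOXF1, while MTHFSD, a broadly expressed gene for a protein with a folate enzyme-like domain and an RNA-binding motif, lies between them. IRF8 is a transcription factor of myeloid and B cells.

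The positions below are those of GRCh38 with GENCODE release 44. FENDRR (ENSG00000268388, lncRNA) spans chr16:86474529-86509099 on the minus strand. FOXF1 (ENSG00000103241) spans chr16:86510527-86515422 on the plus strand, and 1427 bases separate the pair. MTHFSD (ENSG00000103248) spans chr16:86530178-86555235 on the minus strand and starts 44.7 kb beyond the FOXF1 start. FOXC2 (ENSG00000176692, chr16:86566829-86569728) and FOXL1 (ENSG00000176678, chr16:86576368-86583478) lie on the plus strand, and their starts are 56.3 and 65.8 kb beyond that of FOXF1. IRF8 (ENSG00000140968, chr16:85899116-85922606, plus strand) starts 611.4 kb before FOXF1.

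The start regions of FENDRR and MTHFSD are shown because they belong to neighbours with different behaviour, FENDRR with no WT count and MTHFSD with counts in every library. Each holds the 250 bases before the RefSeq start site (GRCh38.p14), written 5′ to 3′ on the minus strand, the strand of both genes. The window of FENDRR is chr16:86508861-86509110 and that of MTHFSD is chr16:86555236-86555485. Capitals mark the GC box GGGCGG and the forkhead motif TGTTTAC, each searched on both strands. The forkhead motif of FENDRR lies on the other strand and reads GTAAACA as printed, and a GC box on the other strand reads CCGCCC.
FENDRR: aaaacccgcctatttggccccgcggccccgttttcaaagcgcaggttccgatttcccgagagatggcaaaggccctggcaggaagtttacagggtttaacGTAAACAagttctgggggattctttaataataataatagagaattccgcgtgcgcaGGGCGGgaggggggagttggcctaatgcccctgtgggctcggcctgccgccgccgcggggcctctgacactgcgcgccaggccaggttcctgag
MTHFSD: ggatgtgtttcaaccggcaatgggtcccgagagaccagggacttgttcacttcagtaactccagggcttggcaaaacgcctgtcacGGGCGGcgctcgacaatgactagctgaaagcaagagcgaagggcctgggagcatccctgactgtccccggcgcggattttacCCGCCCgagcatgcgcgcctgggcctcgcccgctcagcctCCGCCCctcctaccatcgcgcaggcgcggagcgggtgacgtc
The FENDRR window held 19 CpG dinucleotides with a GC content of 59.2%, against a median of 11 CpG and 58.0% over all 35114 windows. It held 1 forkhead motif, present in 2.98% of all windows, and 1 GC box, present in 42.6%. The longest GENCODE exon of FENDRR here runs from 86508655 to 86509099, so it covers most of this window, both marked motifs included. The MTHFSD window held 24 CpG at 64.8% GC, with 3 GC boxes and no forkhead motif. It also holds the annotated start of FLJ30679, a gene read in the opposite direction. IRF8 had 2 windows, with 2 and 4 CpG and neither motif. None of these windows held the TATA box letters TATAAA, which 10.7% of all windows hold. The same was true of the CCAAT box, with the letters CCAAT (32% of all windows), and of the core of the GLI motif, CCACCCA (8.17%), the motif of the Hedgehog transcription factors. A match of letters is a description of the sequence, not a binding site. No window for FOXF1, FOXC2 or FOXL1 was used here.

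Library totals ranged from 11098400 to 30899045 counts. Levels are given as CPM, counts per 1000000 of the library total after TMM scaling, which corrects the totals for differences in composition. A floor of 3 counts corresponded to 0.1 to 0.270 CPM in the WT libraries and to 0.111 to 0.169 CPM in the KO libraries. Floors and count intervals cover counting error only, since the reads carried no molecular identifiers. CDK12 itself was at 115 ± 11.1 CPM in the WT libraries and at 98.1 ± 4.64 CPM in the KO libraries (SD, n = 3). It was lower in KO by the adjusted p alone (log2 fold change -0.23, edgeR adjusted p = 8.2e-04). Counts over the whole gene do not show an edit in exon 1, so they do not check the genotype labels. Of the markers of ovarian carcinoma, MUC16 and ESR1 had at most 1 count in any library and PAX8 (0.200 CPM in WT and 0.0531 CPM in KO) and WT1 at most 6. The summed level of 5 ovarian carcinoma markers was 1.10 to 1.53 CPM in WT and 1.67 to 2.12 CPM in KO, most of it MSLN (1.06 and 1.73 CPM, edgeR adjusted p = 0.00353). That of 6 epithelial markers was 68.1 to 73.7 and 114 to 119 CPM, most of it KRT18 (59.9 and 103 CPM). KRT8 was higher in KO as well by the edgeR adjusted p alone, EPCAM was lower (3.19 and 2.17 CPM, edgeR adjusted p = 0.0119), and CDH1, KRT7 and KRT19 had at most 11 counts in any library.

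FENDRR was not detected in WT cells and was well expressed in KO cells. WT replicates 1, 2 and 3 each had 0 counts, which allows up to 0.110, 0.1 and 0.270 CPM. The KO replicates had 896, 1052 and 701 counts, or 36.5, 39.1 and 39.4 CPM. The groups were far apart and the KO libraries were close to each other, at 38.3 ± 1.61 CPM (SD, n = 3). Against the highest WT floor this is at least 142-fold higher in KO. In a bulk culture, fewer cells that express a gene and less RNA per cell cannot be told apart, so these counts do not say whether every KO cell carried FENDRR RNA.

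FOXF1 had the same pattern. No WT library had a FOXF1 count. The KO replicates had 737, 717 and 433 counts, or 30.0, 26.6 and 24.3 CPM, a mean of 27.0 ± 2.85 CPM and at least 99.9-fold above the highest WT floor. The KO libraries differed more among themselves for FOXF1 than for FENDRR, with the highest FOXF1 level in KO replicate 1 and the highest FENDRR level in KO replicate 3. The fitted log2 fold changes of 12.78 (SE 0.26) for FENDRR and 12.28 (SE 0.30) for FOXF1 depend on the small count that the fit adds to the empty WT libraries and are no bounds. Genes with such a gap were few: 123 of 16198 tested genes (0.759%) had no more than 3 counts in any WT library and at least 10 in each KO library, FENDRR and FOXF1 among them.

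**Figure D1:**
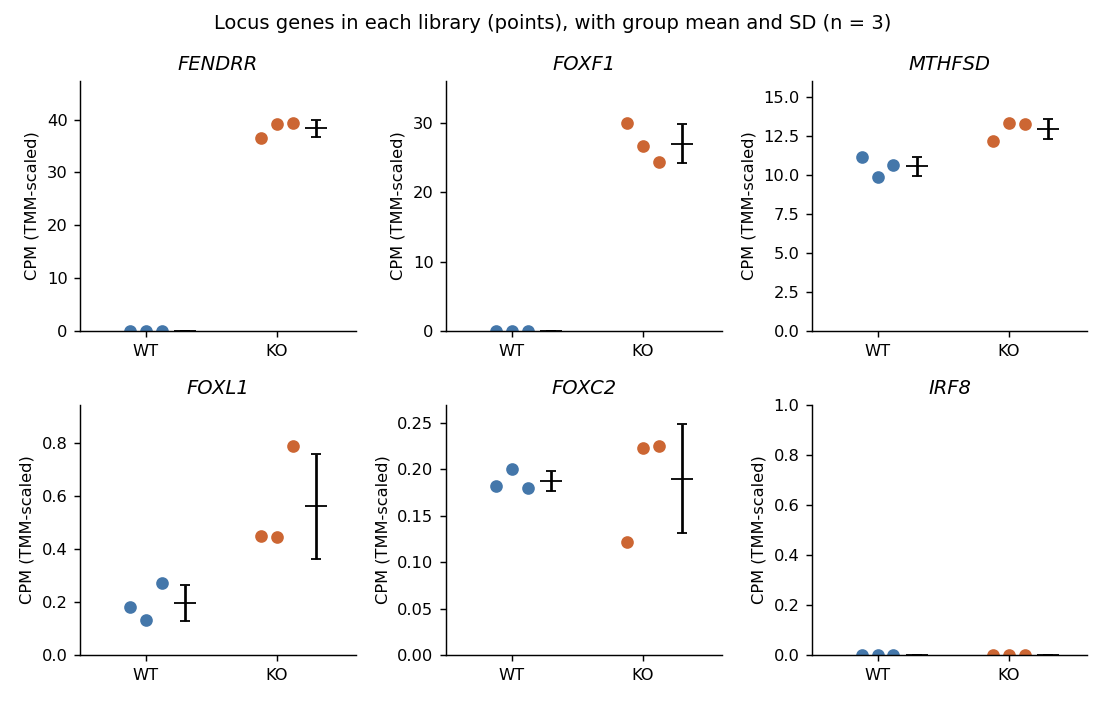
CPM (TMM-scaled) of the 6 genes, 1 panel per gene, with a point for each of the 3 WT and 3 KO libraries and bars for the group mean and SD (n = 3). FENDRR lies at 0 in WT and between 36.5 and 39.4 CPM in KO, FOXF1 at 0 and between 24.3 and 30.0 CPM, the MTHFSD groups differ by 1.23-fold, and IRF8 is at 0 throughout.

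MTHFSD was the only one of the 6 genes with more than 100 counts in every library. It had 306, 297 and 118 counts in WT and 300, 360 and 237 in KO. The levels were 11.2, 9.91 and 10.6 CPM in WT and 12.2, 13.4 and 13.3 CPM in KO. Every KO library was above every WT library, and the means of 10.6 ± 0.629 and 13.0 ± 0.657 CPM differed by 1.23-fold (log2 fold change 0.30, SE 0.09). A gap of that kind is common in this comparison, since the KO and WT libraries did not overlap for 66.4% of tested genes. Of the 6 genes of the locus, they did not overlap for the 4 that entered the fit. FENDRR and FOXF1, which are among these 4, were chosen for such a gap.

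FOXL1 was barely detected in either group. It had 5, 4 and 3 counts in the WT libraries and 11, 12 and 14 in the KO libraries. The levels were 0.183, 0.134 and 0.270 CPM in WT, close to the floor, and 0.448, 0.446 and 0.787 CPM in KO. All KO libraries lay above all WT libraries. The summed counts of 12 and 37 give a KO to WT ratio of 3.05, and the fitted log2 fold change was 1.58 (SE 0.44). FOXL1 passed the filter on low counts through its KO libraries, so a difference in that direction was built in. KO replicate 3, the smallest KO library, had the highest FOXL1 level.

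FOXC2 lies between MTHFSD and FOXL1 and ends 6.64 kb before FOXL1 starts. It had 5, 6 and 2 counts in WT and 3, 6 and 4 in KO, which are 0.183, 0.200 and 0.18 CPM against 0.122, 0.223 and 0.225 CPM. The groups overlapped and their sums were 13 and 13 counts. At this depth the ratio of 0.988 has an exact 95% interval of 0.422 to 2.31, so a change of about that size in either direction was not detectable. FOXC2 did not pass the filter on low counts. FOXC2-AS1, which overlaps FOXC2 on the other strand, had 1 count, in WT replicate 1. The sources used here do not say whether reads were counted by strand, so reads of this pair may not be told apart.

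IRF8 had 0 counts in all 6 libraries, which allows up to 0.270 CPM in the shallowest one. Of the markers of myeloid cells, where IRF8 is normally found, PTPRC, SPI1, CSF1R and AIF1 had at most 3 counts in any library. CD14 was the only myeloid marker tested, with 12, 7 and 5 counts in WT and 12, 26 and 12 in KO, and it rose (log2 fold change 1.02, edgeR adjusted p = 0.0156). It passed the filter on low counts through its KO libraries, so a difference in that direction was built in. The 7 myeloid markers together had 0.467 to 0.876 CPM in WT and 0.895 to 1.37 CPM in KO. IRF8 and FOXC2 were thus the members below the filter, and 4 of the 6 genes entered the fit. FENDRR, FOXF1 and FOXL1 entered it through their KO libraries, so a difference in that direction was built in for them.

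The levels of different genes were compared per kilobase of annotated exon. FOXF1 reached 8.52, 7.57 and 6.91 CPM per kb in the KO libraries and FENDRR 5.30, 5.68 and 5.73 CPM per kb. MTHFSD followed at 1.89 ± 0.0957 CPM per kb, then FOXL1 at 0.112 ± 0.0391 and FOXC2 at 0.0655 ± 0.0203 CPM per kb. FOXL1 and FOXC2 are neighbours in this order whose KO libraries did not overlap, although each rests on 14 counts or fewer per library, and the KO libraries of FOXF1 and FENDRR did not overlap either. In WT the order was MTHFSD at 1.54 ± 0.0917, FOXC2 at 0.0647 ± 0.0038 and FOXL1 at 0.0389 ± 0.0138 CPM per kb, with FENDRR, FOXF1 and IRF8 at 0.

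In KO cells FENDRR and FOXF1 were in the middle of the range of abundance. FOXF1 exceeded 65.7% of tested genes per kilobase and FENDRR exceeded 57.4%, against 35.8% for MTHFSD. Among 23 tested forkhead genes FOXF1 ranked at place 6 in KO, between FOXJ2 at 9.07 and FOXP4 at 7.48 CPM per kb. Among 1969 tested lncRNA genes FENDRR ranked at place 104. The order within the pair depended on the length used. The ratio of FENDRR to FOXF1 was 0.622, 0.751 and 0.828 in the KO libraries per kilobase of all annotated exons, a mean of 0.734 ± 0.104. Per kilobase of the longest annotated transcript it was 1.36 ± 0.193, because FENDRR has 6880 bases of exon over all its isoforms and 3705 in the longest. Which of the pair was more abundant cannot be read from gene counts alone.

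**Figure D2:**
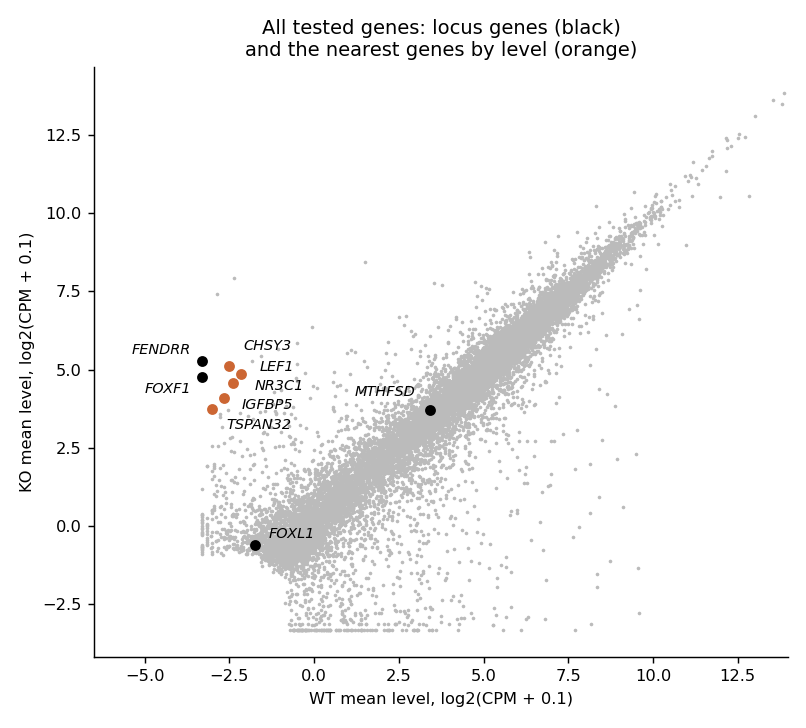
Mean level of every tested gene in WT (x axis) and KO (y axis), as log2 of CPM plus 0.1, with genes of the locus in black and the genes nearest to FOXF1 or FENDRR in orange. FENDRR and FOXF1 stand at the left edge with 0 CPM in WT and 38.3 and 27.0 CPM in KO, MTHFSD lies within the main cloud and FOXL1 near its lower end.

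The genes whose log2 CPM over the 6 libraries was nearest to FOXF1, by Euclidean distance, were FENDRR (0.929), CHSY3 (1.72), NR3C1 (1.81), IGFBP5 (1.90) and TSPAN32 (1.97). For FENDRR they were FOXF1 (0.929), CHSY3 (1.61), NR3C1 (2.12), LEF1 (2.36) and IGFBP5 (2.50). Since FOXF1 and FENDRR were chosen for their counts in these libraries, the closeness of the pair restates that choice, and by Pearson correlation 0 of the 5 nearest genes of either were the same. CHSY3, a chondroitin sulfate synthase on chromosome 5, had 1, 3 and 1 counts in WT and 828, 929 and 619 in KO. NR3C1, the glucocorticoid receptor, had 3, 2 and 1 counts in WT and 573, 642 and 436 in KO. LEF1, a transcription factor of the Wnt pathway, went from 1, 2 and 3 counts to 691, 775 and 524. IGFBP5, an IGF-binding protein, and TSPAN32, a tetraspanin, had at most 3 counts in a WT library and at least 233 in a KO library. None of these 5 genes lies on chromosome 16, and all 5 were named for this likeness.

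**Figure D3:**
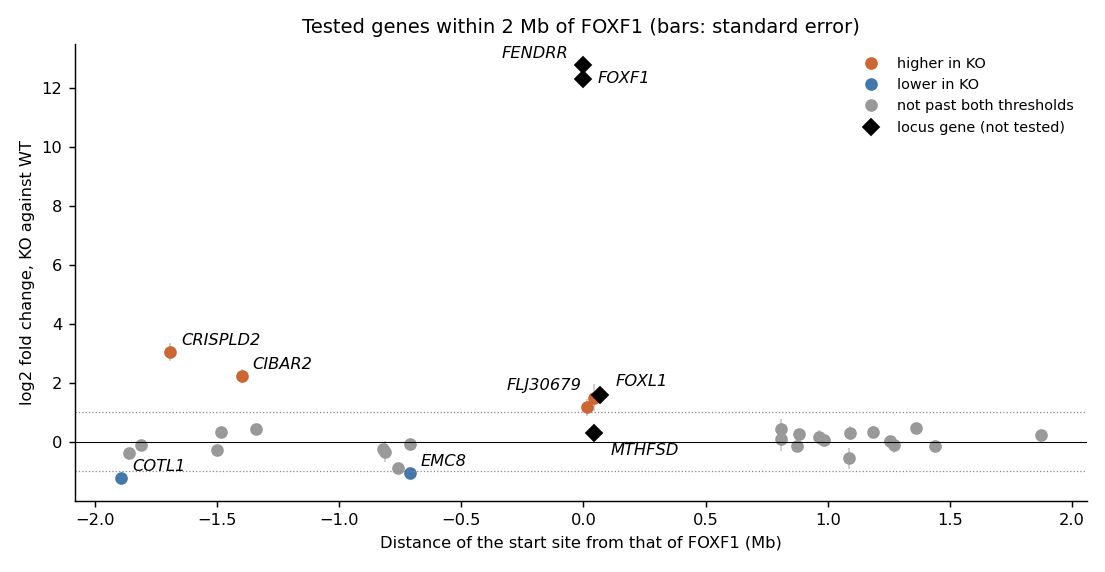
Log2 fold change (KO against WT) of the tested genes around FOXF1 on chromosome 16, plotted against the distance of each start site from that of FOXF1 within 2 Mb, with bars for the standard error and dotted lines at -1 and 1. FENDRR and FOXF1 stand at 12.78 and 12.28, FOXL1 at 1.58 and MTHFSD at 0.30, and other tested genes within 1 Mb lie between -1.05 and 1.5. Over the full 2 Mb the other tested genes lie between -1.23 (COTL1) and 3.03 (CRISPLD2).

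No other tested gene near FENDRR and FOXF1 had a gain of their size. Within 1 Mb of the FOXF1 start, 58 other genes are listed, of which 31 had no count in any library and 13 were tested. By the edgeR quasi-likelihood test, 2 of the 13 rose past an adjusted p of 0.05 and a log2 fold change of 1, against 8.30% of all tested genes, and 1 fell below -1, against 7.73%. Of those that rose, FLJ30679 entered the test through its KO libraries. At the adjusted p alone 3 rose and 4 fell, against 31.9% and 32.0% of all tested genes (63.9% in either direction). The median log2 fold change of the 13 was 0.07, beside 0.00 over all tested genes. The 2 that rose were the only other genes tested within 0.5 Mb of FOXF1. No other protein-coding gene of the window rose past both thresholds.

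Both genes that rose are unnamed or little-known transcripts inside the cluster, and they were singled out after their values were seen. ENSG00000270020, a lncRNA at chr16:86520383-86523897 between FOXF1 and MTHFSD, had 12, 17 and 8 counts in WT and 31, 36 and 18 in KO (log2 fold change 1.17, SE 0.28, edgeR adjusted p = 5.17e-04). Without WT replicate 1 its log2 fold change was 0.99. FLJ30679, at chr16:86555320-86557299 and starting within 250 bases of MTHFSD, had 9, 2 and 1 counts in WT and 13, 12 and 10 in KO (1.5, SE 0.47, edgeR adjusted p = 0.00601). Without WT replicate 2 its log2 fold change was 0.95 and its adjusted p was 0.0966 by the same test. It passed the filter on low counts through its KO libraries, as FOXL1 did, so a difference in that direction was built in. These changes were of the size seen for FOXL1 and far below the bounds for FENDRR and FOXF1.

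EMC8, a subunit of the membrane protein insertion complex of the endoplasmic reticulum, starts at -710.9 kb relative to FOXF1 and was the gene of the window that fell. The WT mean was 49.6 ± 2.16 CPM and the KO mean 23.8 ± 2.15 CPM (log2 fold change -1.05, SE 0.07, edgeR adjusted p = 3.34e-15), and -0.99 without KO replicate 1. EMC8 overlaps COX4I1 at its start, on the other strand, so reads of the overlap may not be told apart. By start site EMC8 is the tested gene nearest to the block of 6 genes on its side, and by gene end it is COX4I1. Neither COX4I1 nor C16orf95, the nearest on the other side, passed the test. COX4I1, a subunit of cytochrome c oxidase, was at 225 ± 8.64 CPM in WT and at 214 ± 13.9 CPM in KO (-0.07, edgeR adjusted p = 0.232). C16orf95 had 19, 10 and 7 counts in WT and 22, 19 and 9 in KO (0.45, edgeR adjusted p = 0.249). Over chromosome 16 without the 6 genes, 56 of 759 tested genes rose (7.38%) and 36 fell (4.74%), with a median log2 fold change of 0.03.

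A related forkhead cluster lies on chromosome 6, where FOXQ1, FOXF2 and FOXC1 stand beside GMDS, EXOC2, IRF4 and DUSP22, and it did not show the change of FOXF1. FOXF2, the closest paralog of FOXF1, had 153, 161 and 55 counts in WT and 142, 152 and 96 in KO, or 5.30 ± 0.321 and 5.61 ± 0.196 CPM (log2 fold change 0.07, edgeR adjusted p = 0.646). FOXC1, the paralog of FOXC2, fell from 4.85 ± 0.276 to 0.752 ± 0.214 CPM (-2.65, SE 0.19, edgeR adjusted p = 1.04e-13). FOXQ1, another forkhead gene, had 0 counts in WT and 3, 0 and 0 in KO. IRF4, a lymphoid relative of IRF8, had 3, 5 and 1 counts in WT and 4, 1 and 1 in KO. GMDS (0.12), EXOC2 (-0.23) and DUSP22 (-0.31) had log2 fold changes within the thresholds. Of the 5 tested genes, 0 rose and 1 fell past both thresholds by edgeR, beside 8.30% and 7.73% of all tested genes. At the p alone, adjusted or not, 0 rose and 3 fell, beside 31.9% and 32.0% at the adjusted p.

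**Figure D4:**
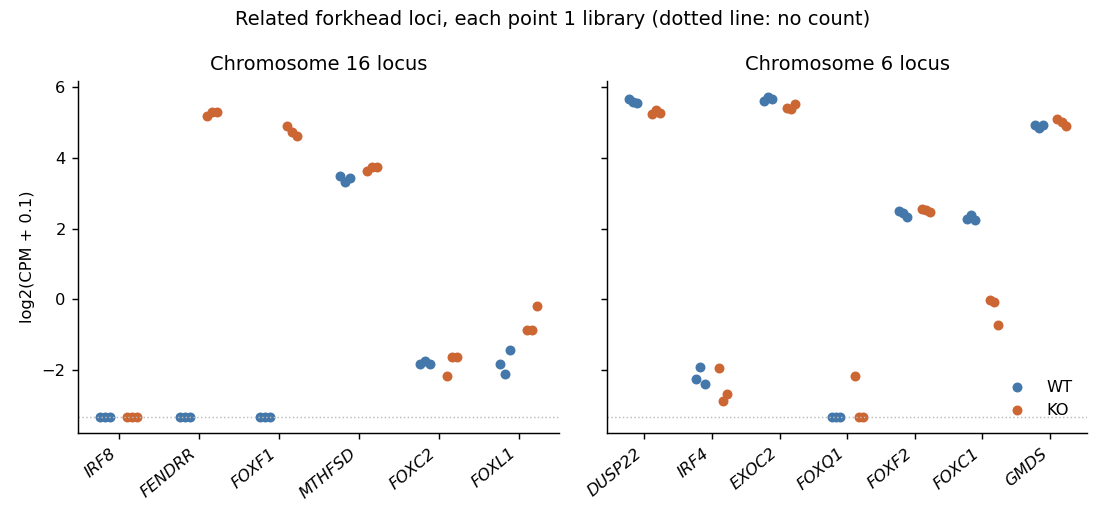
Log2 of CPM plus 0.1 in each WT and KO library (points, with a dotted line at no count) for the forkhead cluster on chromosome 16 and the related cluster on chromosome 6. FOXF1 differs between the groups (means of 0 and 27.0 CPM) where FOXF2 does not (5.30 and 5.61 CPM), and FOXC1 is lower in KO (0.752 CPM) where FOXC2 has about 0.19 CPM in both.

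Over the forkhead family as a whole, with the 3 forkhead genes of the locus left out, 48 genes were listed and 21 tested. Of these, 4 rose and 3 fell past both thresholds by edgeR, beside 8.30% and 7.73% of all tested genes, and 8 rose and 6 fell at the adjusted p alone, beside 31.9% and 32.0%. The median log2 fold change was 0.07. FOXP1 rose from 5, 2 and 6 counts in WT to 335, 318 and 224 in KO (edgeR adjusted p = 3.15e-21). FOXN4, FOXP3 and FOXO6 rose as well, and FOXC1, FOXL2 and FOXO1 fell. Except for FOXC1, these were named after their values were seen. Their WT counts were not at 0, unlike those of FOXF1. FOXP1 and FOXN4 passed the filter on low counts through their KO libraries, so a rise was built in for them.

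Hedgehog signalling acts upstream of FOXF1 in the embryo. Among 17 tested genes of a list of 20, 2 rose and 4 fell past both thresholds by edgeR, against 8.30% and 7.73% of all tested genes. At the adjusted p alone 4 rose and 9 fell, against 31.9% and 32.0%, with a median log2 fold change of -0.73. Of the ligands, DHH rose from 1, 4 and 1 counts to 33, 32 and 17 (3.67, SE 0.43, edgeR adjusted p = 5.80e-09). SHH had 12, 8 and 3 counts in WT and 19, 22 and 7 in KO (1.03, edgeR adjusted p = 0.0153). The groups of SHH overlapped, and its call was lost under voom/limma, at a log2 fold change of 0.97, and under DESeq2, at an adjusted p of 0.101. It was also lost without WT replicate 2 (0.82), WT replicate 3 (0.97), KO replicate 1 (0.93) or KO replicate 2 (0.85). DHH and SHH, the 2 Hedgehog genes that rose, passed the filter on low counts through their KO libraries. A difference in that direction was therefore built in for both. Of the receptors, PTCH1, which is also a target of the pathway, fell from 36.4 ± 1.66 to 8.29 ± 0.841 CPM (-2.15, edgeR adjusted p = 1.82e-21). CDON, a co-receptor, fell from 6.46 ± 0.613 to 2.29 ± 0.509 CPM, and GPR161, an inhibitor of the pathway in cilia, from 35.9 ± 1.52 to 9.76 ± 0.473 CPM. The transcription factor GLI2 fell from 23.8 ± 2.03 to 3.43 ± 0.302 CPM (-2.80, edgeR adjusted p = 1.65e-21). GLI1, another target, fell by 0.98 on the log2 scale and SMO by 0.95, both past the adjusted p alone.

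**Figure D5:**
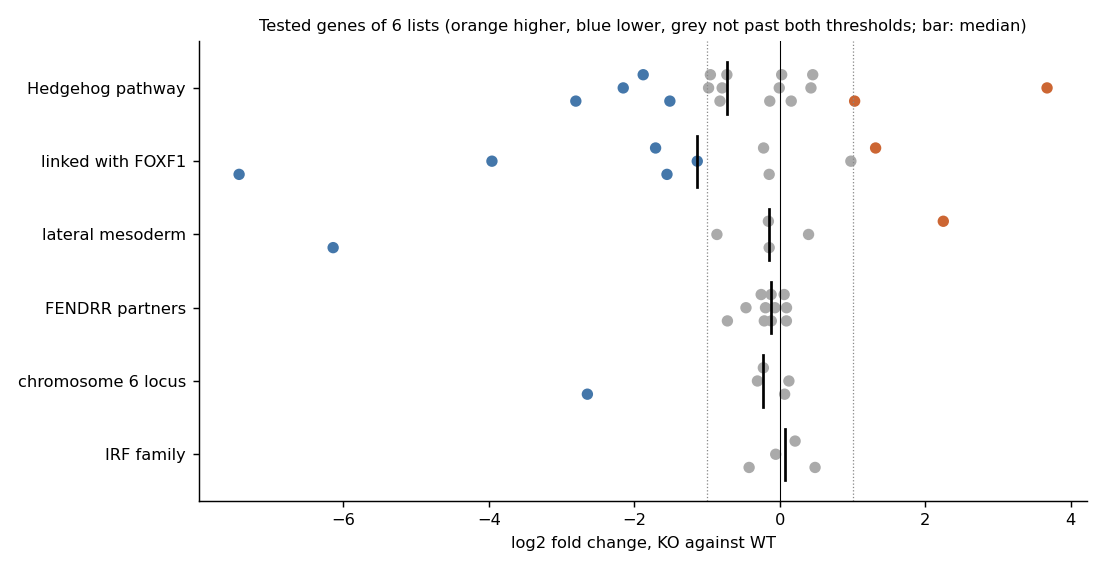
Log2 fold change (KO against WT) of each tested gene in the 6 gene lists, 1 row of points per list, with a bar at the list median and dotted lines at -1 and 1. The Hedgehog list spans -2.80 to 3.67 with a median of -0.73, and the partners of FENDRR span -0.72 to 0.09.

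A further list held genes linked with FOXF1 in the mesenchyme of lung, gut and vessels. Of 18 listed genes 9 were tested, and 1 rose and 5 fell past both thresholds by edgeR (8.30% and 7.73% of all tested genes). At the adjusted p alone 2 rose and 6 fell (31.9% and 32.0% of all), and the median log2 fold change was -1.14. TBX4, a T-box factor of lung mesenchyme, rose from 1.01 ± 0.0789 to 2.54 ± 0.113 CPM (1.32, edgeR adjusted p = 9.04e-07). LOX, which crosslinks collagen, had 29, 25 and 10 counts in WT and none in KO, which is at least 5.52-fold lower. ITGB3, an integrin subunit, had 36, 32 and 14 counts in WT and 2, 2 and 1 in KO. LOX and ITGB3 passed the filter on low counts through their WT libraries, so a fall was built in for them. HOXB5 (-1.71), the VEGF receptor FLT1 (-1.55) and the smooth muscle kinase MYLK (-1.14) fell too. WNT2, VCAM1 and TBX5 had 0 counts in all 6 libraries and KDR and TEK at most 3, so that no change of theirs was detectable.

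Markers of cells that normally carry FOXF1 were read beside it. PECAM1, CDH5, KDR, TEK and EMCN had at most 3 counts in any library, while the other 2 endothelial markers passed both thresholds in opposite directions. VWF had 2, 7 and 3 counts in WT and 18, 22 and 10 in KO (log2 fold change 2.00, edgeR adjusted p = 1.04e-04), and CLDN5 had 11, 18 and 9 in WT and 0 in KO (edgeR adjusted p = 2.85e-07). VWF passed the filter on low counts through its KO libraries and CLDN5 through its WT libraries, so both directions were built in. All 7 summed to 0.547 to 1.35 CPM in WT and 0.730 to 0.929 CPM in KO. Of 8 fibroblast markers, DCN and LUM had 0 counts in KO, and COL1A1, PDGFRA and PDGFRB fell past both thresholds. DCN and LUM passed the filter on low counts through their WT libraries, so a fall was built in for them. COL1A2 fell (-0.80) and THY1 rose (0.26) at the edgeR adjusted p alone, and COL3A1 did not pass it (-0.01, edgeR adjusted p = 0.863). The summed level of the 8 was 11200 to 11600 CPM in WT and 8680 to 8960 CPM in KO, most of it COL1A2 and COL3A1. Whether the counts of these markers and those of FOXF1 and FENDRR came from the same cells was not tested.

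Lateral mesoderm is the setting in which FENDRR was described. Of 12 listed factors 6 were tested, and 1 rose and 1 fell past both thresholds by edgeR (8.30% and 7.73% of all tested genes). At the adjusted p alone 2 rose and 2 fell, close to the 31.9% and 32.0% of all tested genes, with a median log2 fold change of -0.15. HAND2, a factor of heart and limb mesoderm, rose from 0.882 ± 0.163 to 4.25 ± 0.570 CPM (2.25, edgeR adjusted p = 7.39e-12). ISL1, a LIM factor of heart progenitors, fell from 409, 446 and 152 counts to 9, 2 and 3 (-6.14, edgeR adjusted p = 1.10e-22). It passed the filter on low counts through its WT libraries, so a fall was built in. GATA4 had 0 counts in WT and 8, 4 and 5 in KO, below the filter. BMP4, GATA6 and TBX5 stand in both this list and the preceding one.

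The protein partners described for FENDRR, subunits of PRC2 and of the MLL complex, were expressed in both groups. All 11 listed genes were tested, none passed both thresholds by edgeR, voom/limma or DESeq2, and at the edgeR p alone 0 rose and 6 fell, adjusted or not, against 31.9% and 32.0% of all tested genes at the adjusted p, with a median log2 fold change of -0.12. EZH2, the methyltransferase of PRC2, averaged 65.7 ± 2.57 CPM (WT) and 39.7 ± 1.00 CPM (KO) (-0.72, edgeR adjusted p = 5.28e-13). The other interferon regulatory factors, relatives of IRF8, gave 4 tested genes of 8, none past both thresholds by any of these tools, with 2 higher and 1 lower at the edgeR p alone, adjusted or not (31.9% and 32.0% of all tested genes at the adjusted p), and a median of 0.08.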

How the data were processed

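RNA-seq was available for A2780 WT and A2780 CDK12 KO cells, 3 libraries each, grouped by the genotype label. Libraries were prepared with a directional kit and read as single ends. The authors deposited raw counts per gene, not normalized. The study's methods and the submitters' processing notes name FastQC, STAR with the GRCh38 genome, and HTSeq for the read counting, while versions, annotation release and strand setting of the counting are not given in the sources used here.

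Identifiers were looked up, version removed, in GENCODE 44, and 56321 of 60483 were found. The counts were analysed with edgeR 4.0.16 (R 4.3.3). Low genes were removed by filterByExpr (minimum count 10, minimum total count 15), libraries scaled by TMM and groups compared by the quasi-likelihood test, two-sided, with Benjamini-Hochberg adjustment over 16198 genes. A gene can pass this filter through 1 group alone, and a difference in that direction was then built in. A call needed both an absolute log2 fold change over 1 and an adjusted p below 0.05. The study's tool, voom/limma (limma 3.58.1), and DESeq2 1.42.0 were alternatives, as were other scalings, filters and windows and the omission of each library. The biological coefficient of variation was 4.35%. A fold against a group at 0 used the highest floor of 3 counts among the empty libraries and is a lower bound. Tested on simulated data for KO against WT over 16099 genes, each of the 3 tools recovered all 200 planted changes, with 1, 5 and 0 false calls for edgeR, voom/limma and DESeq2. The planted changes were at least 3-fold, in genes expected at 10 counts or more in the smallest library. Smaller changes and genes with fewer counts were not covered by this simulation.

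The 6 genes and the gene lists were chosen with earlier results of these data known. Named besides the 6 were protein-coding genes within 1 Mb past both thresholds, the nearest tested gene on each side, listed genes past both thresholds (at most 6 a list), the chromosome 6 cluster, the 5 genes nearest to FOXF1 and to FENDRR in log2 CPM (prior count 2) and CDK12. Promoter windows were those of RefSeq, found for 3 of the 6 genes. Figures were drawn with matplotlib 3.10.9.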

Additional observations from a re-analysis of the deposited data

Results flagged for a closer look

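Genes of the window around FOXF1 that were below the filter, and so in no comparison, held counts in KO that WT lacked. LINC00917, a lncRNA on the FENDRR strand that starts at -160.8 kb relative to FOXF1, had 0 counts in WT and 8, 8 and 2 in the KO libraries, 18 in all. LINC01081, on the same strand and further out, had 0 in WT and 6 in KO. RPL7AP63, a ribosomal protein pseudogene on the FOXF1 strand downstream of FOXF1, had 0 in WT and 1, 3 and 2 in KO, 6 in all. Reads of such a pseudogene are not told apart from those of near-identical copies with certainty. Of 14 genes in the window below the filter with any count, 6 (42.9%) had none in WT and 3 (21.4%) had none in KO, against 21.0% and 19.3% of all 15370 such genes. Apart from the genes named above, those with none in WT had 1 KO count each. Those with none in KO had 1 WT count each.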

How the results depend on the processing

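No paired analysis was possible because the labels number the libraries 1 to 6 and share no number between WT and KO. Of 281 alternative values over 24 results, 230 stayed within the main value's range, 51 moved and 0 reversed. Over all tested genes, 568 rose and 684 fell with at least 10 counts required in every library, a filter that drops genes empty in a group, and 5165 rose and 5188 fell at the adjusted p alone. Under that same filter the rising genes were 0 in the 1 Mb window, 0 in the Hedgehog list and 0 in lateral mesoderm, and the falling genes were 3 for the FOXF1-linked list, 0 in lateral mesoderm and 0 on chromosome 6. Neither FENDRR nor FOXF1 can pass that filter. At the adjusted p alone the window gave 4 falling genes, Hedgehog 4 rising and 9 falling, the FOXF1-linked list 2 rising, lateral mesoderm 2 rising and 2 falling, the FENDRR partners 6 falling, the chromosome 6 cluster 3 falling, and the interferon factors 2 rising and 1 falling. Leaving out 1 library gave 1 to 2 rising (1 without WT replicate 1 or 2) and 0 to 2 falling genes in the window (2 without WT replicate 1, 0 without KO replicate 1), 1 to 2 rising Hedgehog genes and 1 to 2 rising FOXF1-linked genes (2 without KO replicate 3). A window of 0.5 Mb had 2 tested genes, of which 2 rose and 0 fell, with a median log2 fold change of 1.33. One of 2 Mb had 4 rising and 2 falling. Rising Hedgehog genes were 1 under voom/limma and 1 under DESeq2. Upper-quartile scaling gave 2 rising FOXF1-linked genes and a chromosome 16 median of 0.057, and omitting the filter gave 2 rising lateral mesoderm genes. The fitted log2 fold change of FENDRR was 10.64 under voom/limma, 12.09 under DESeq2, 8.78 with a prior count of 2 and 12.69 to 12.92 leaving out 1 library, and that of FOXF1 was 10.14, 11.58, 8.29 and 12.18 to 12.42. By Pearson correlation 0 of the 5 nearest genes were shared for either gene, and 3 were with a prior count of 0.5. The FENDRR to FOXF1 ratio was 1.36 per kilobase of the longest transcript. Unless its construction shows it, the cause was not tested.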

Other observations

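In the stretch between IRF8 and FENDRR, counts lay in the annotated genes of 1 strand only, a pattern noticed after the values were seen. On the minus strand, the strand of FENDRR, 5 of 8 annotated genes had a KO count, 28 counts in all, against 1 count in 1 gene in WT. Most of the KO counts were those of LINC00917 (18) and LINC01081 (6). The WT count was in ENSG00000261177, which had 2 counts in KO. On the plus strand none of 5 genes had a count in any library. These genes lie beyond the 3′ end of FENDRR, and whether their reads belong to separate transcripts was not tested. The strand is that of the annotated genes, since the sources used here do not say whether reads were counted by strand.

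Elsewhere on chromosome 16, a few more genes were near 0 in one group and present in the other, and they too were named after their values were seen. SSTR5, a somatostatin receptor, had 3, 1 and 0 counts in WT and 47, 27 and 26 in KO, and SSTR5-AS1, which overlaps it on the other strand, had 0, 1 and 1 against 14, 11 and 10. ENSG00000262370, a lncRNA, had 2, 0 and 0 counts in WT and 31, 32 and 27 in KO. ENSG00000280344 had 2, 2 and 0 against 18, 19 and 14. In the other direction, ABCC6, an ABC transporter, had 68, 92 and 30 counts in WT and 0, 3 and 1 in KO, and LINC02167 had 44, 44 and 19 against 0 in each KO library.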
